A study of Arabidopsis thaliana with 6 samples.

Results

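Phenylpropanoids are the phenolic compounds that plants make from phenylalanine, and 38 *Arabidopsis thaliana* genes of this metabolism were examined in plants that overexpressed the rice transcription factor gene *OsbHLH068*. The genes were listed by their locus identifiers, with earlier results of these data known, out of 25433 genes with a probe on the array. They were divided by role into 8 general phenylpropanoid genes, 9 monolignol genes, 3 sinapate genes, 6 early flavonoid and flavonol genes, 6 late anthocyanin and proanthocyanidin genes, and 6 transcriptional activators. Aerial tissue of seedlings aged 17 days gave the RNA, and the series describes the arrays of a group as biological repeats. OsbHLH068OE was a transgenic line with *OsbHLH068* under the constitutive 35S promoter in the Col-0 background, represented by 3 arrays, and the other group was untransformed Col-0, also represented by 3 arrays. Only 1 transgenic line was on the arrays, so an effect of the transgene cannot be told apart from one of that line. The methods state that labelled cRNA was pooled before hybridization without saying which samples were pooled, so the P-values measure the spread between these arrays.

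In the general pathway, phenylalanine ammonia-lyase (PAL) removes ammonia from phenylalanine, cinnamate 4-hydroxylase (C4H) hydroxylates the product, and 4-coumarate:CoA ligase (4CL) activates it. The activated acid is then used for the monolignols that polymerize into lignin, for sinapate esters that absorb ultraviolet light in leaves, or, through chalcone synthase, for flavonols, anthocyanins and proanthocyanidins. In *Arabidopsis* the early flavonoid genes are activated mainly by MYB11, MYB12 and MYB111, and the late genes by complexes of a MYB, a bHLH and a WD40 protein.

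The 38 genes were measured by 55 probes, each a single oligonucleotide, and 11 genes had more than 1 probe. Probe sequences were at hand for 3 of the genes and are printed 5′ to 3′ because they fix which transcript stretch was read: *PAL2* and *PAL3*, which belong to a family of similar genes, and *UGT79B1*, the only gene of the 38 that counted as a differentially expressed probe (DEP), that is, with a log2 difference past 1 and an unadjusted limma P under 0.05. They are 60 bases long and in lower case throughout, since no stretch within them was singled out.
PAL2 (AT3G53260): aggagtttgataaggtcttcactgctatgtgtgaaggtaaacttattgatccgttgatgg
PAL3 (AT5G04230): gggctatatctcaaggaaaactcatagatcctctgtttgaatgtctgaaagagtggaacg
UGT79B1 (AT5G54060): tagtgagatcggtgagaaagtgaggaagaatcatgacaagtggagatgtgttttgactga
For the other genes the probe is given by its transcript only, and cross-hybridization between related genes was not tested.

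All values are log2 normalized signals, on which a difference of 1 is a doubling, and signals are compared between arrays for the same probe, never between probes. Where a gene had several probes, the probe with the highest mean signal over the 6 arrays stood for it unless stated otherwise. The arrays had similar signals, with 70.9 to 74% of probe spots well above background in OsbHLH068OE and 72.4 to 73.2% in Col-0. Slide 1 carried the first replicate of each group, and slide 2 carried the remaining arrays. Of the 38 genes, 35 were well above background on all 6 arrays. *BAN* and *MYB90* were so on no array, and *MYB11* was so on 2 OsbHLH068OE arrays and 0 Col-0 arrays.

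Most of the genes had a higher signal in OsbHLH068OE than in Col-0, but the differences were small and none passed the test after adjustment over all probes. The signal was higher in OsbHLH068OE for 32 genes and lower for 6, with a median log2 difference of 0.32. Over the 36 of them that were well above background on at least 1 array, the range was −0.31 to 1.02. Over all 25433 genes the median was 0.02, with 13538 higher and 11895 lower. With limma, 15 of the 38 genes (39.5%) were higher at an unadjusted P under 0.05, where 12.5% of all genes were, and 2 were lower, where 9.66% of all genes were. All 3 OsbHLH068OE arrays were above all 3 Col-0 arrays for 17 genes (44.7%), where this held for 16.5% of all genes, and below them for 2 genes, where it held for 13.6%.

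Counted over all 55 probes, 27 were higher at an unadjusted P under 0.05 (49.1%), where 10.9% of all 43603 probes were, and 2 were lower, where 8.88% were. A probe counted as a DEP, after the study's fold threshold, when its log2 difference passed 1 in either direction with an unadjusted limma P under 0.05. By this criterion 1.17% of all probes and 1 of the 55, that of *UGT79B1*, were DEPs. After Benjamini-Hochberg adjustment over all probes, 0.527% of all probes and 0 of the 55 had a limma P under 0.05, and the lowest adjusted P among the 55 was 0.0826. With the slide as a block, limma's adjusted P was under 0.05 for 2.33% of all probes and again for 0 of the 55, with a lowest value of 0.0519. Other settings changed this count. Of the 55, 4 passed with an offset of 50 in the background correction, without that correction, or with an intensity trend and robust prior. These were probes of *4CL3*, *4CL1*, *CAD4* and *SNG1*. Over all 43603 probes, the count passing rose as well, from 230 to 1560, 1518 and 1387 in that order. Because a group of 3 arrays against 3 cannot give an exact permutation P below 0.1, that test was of no further use here. That smallest value was reached by 19 of the 38 genes, which are the genes whose groups did not overlap.

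**Figure D1:**
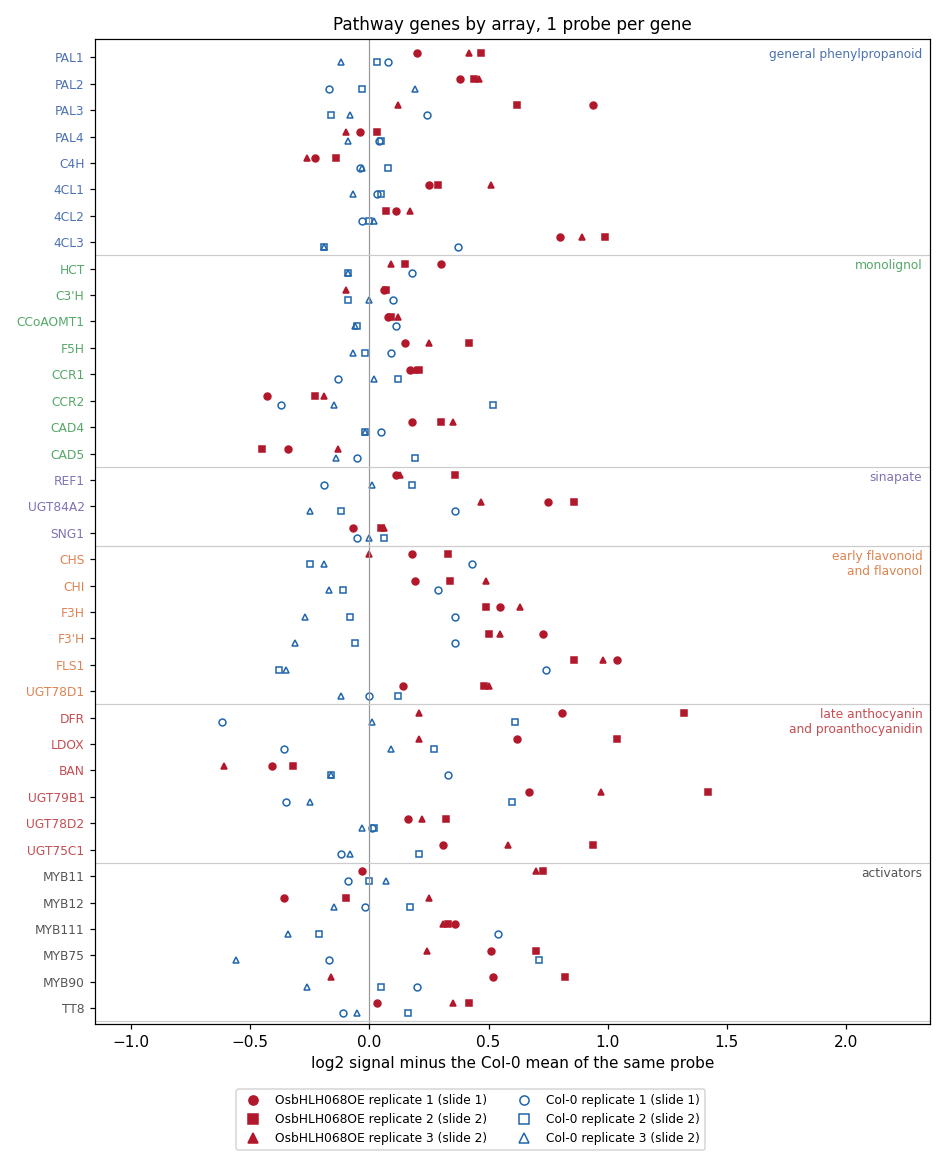
Log2 signal of 37 of the genes on each array, minus the Col-0 mean of the same probe, with genes down the page by branch. Filled symbols are the 3 OsbHLH068OE arrays, and open symbols are the 3 Col-0 arrays, with a circle for replicate 1 on slide 1 and squares and triangles for replicates 2 and 3 on slide 2; in 16 genes the filled symbols all lie to the right of the open ones.

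Among the general phenylpropanoid genes, *PAL1*, *PAL2*, *4CL1* and *4CL3* were higher in OsbHLH068OE, and *C4H*, which acts between PAL and 4CL, was lower, each at an unadjusted P under 0.05. Their log2 differences ran from −0.22 to 0.90 with a median of 0.36. *4CL3* (AT1G65060), a 4CL isoform associated with flavonoid synthesis, had the lowest adjusted P of the 38 genes. Its log2 signal was 9.61, 9.80 and 9.70 in OsbHLH068OE, against 9.18, 8.62 and 8.62 in Col-0. No Col-0 array reached the transgenic arrays, and the one on slide 1 came nearest. The log2 difference was 0.90 (SE 0.173, limma adjusted P = 0.0931), a 1.86-fold higher signal. A second *4CL3* probe was near background, with 0 of 3 OsbHLH068OE arrays and 1 of 3 Col-0 arrays well above it, and it read 4.86, 4.42 and 4.39 against 5.41, 4.18 and 4.64. It is the only case among the 38 genes in which probes of a gene differed in direction.

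*4CL1* (AT1G51680), the isoform associated mainly with lignin, had 3 probes with log2 differences of 0.35, 0.36 and 0.29. *4CL2* (AT3G21240), another isoform of that class, had a log2 difference of 0.12, with a 95% interval of −0.06 to 0.30. Among the PAL genes, *PAL2* had signals of 14.22, 14.28 and 14.30 in OsbHLH068OE, against 13.67, 13.81 and 14.03 in Col-0. The groups did not overlap, and the log2 difference was 0.43 (SE 0.111, limma adjusted P = 0.136). *PAL1* (AT2G37040) had 12.58, 12.85 and 12.80 in OsbHLH068OE and 12.46, 12.41 and 12.26 in Col-0, also without overlap, and its second probe gave a log2 difference of 0.38 beside the 0.37 of the brighter one. *PAL3* had 10.74, 10.42 and 9.92 in OsbHLH068OE, against 10.04, 9.64 and 9.72 in Col-0. OsbHLH068OE replicate 3 was below the first Col-0 array, so the groups overlapped, and its log2 difference of 0.56 had a 95% interval of −0.00 to 1.12. Its unadjusted limma P was 0.051, and 0.015 with the slide as a block. *PAL4* (AT3G10340) had a log2 difference of −0.04, with an interval of −0.24 to 0.16. *C4H* (AT2G30490) had 14.21, 14.30 and 14.18 in OsbHLH068OE, against 14.40, 14.52 and 14.41 in Col-0. Every transgenic array lay below every Col-0 array, by a log2 difference of −0.22 (SE 0.0808, limma adjusted P = 0.227).

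The monolignol genes, which encode the steps from the activated acid to the lignin alcohols, had the lowest median of the branches, a log2 difference of 0.17. At an unadjusted P under 0.05, 3 of the 9 genes were higher and 0 were lower, where 12.5% and 9.66% of all genes were. *F5H* (AT4G36220), the hydroxylase that directs the pathway to syringyl units, and *CAD4* (AT3G19450), an alcohol dehydrogenase of the last step, were among the 3, each with a log2 difference of 0.27. A second *CAD4* probe gave 0.35, and the remaining one gave 0.06. *CAD5* (AT4G34230), the related dehydrogenase of the same step, differed the other way, at 11.17, 11.06 and 11.38 in OsbHLH068OE, against 11.46, 11.70 and 11.37 in Col-0. Replicate 3 was nearly equal in both groups, so the groups overlapped, and its log2 difference of −0.31 had a 95% interval of −0.63 to 0.01 (limma adjusted P = 0.259). *CCR1* (AT1G15950), the cinnamoyl-CoA reductase of lignin synthesis, had 2 probes with log2 differences of 0.18 and 0.25. *CCR2* (AT1G80820), its defence-associated relative, had −0.28, with an interval of −0.86 to 0.30. *HCT* (AT5G48930), the acyltransferase that opens this branch, had 3 probes at 0.17, 0.24 and 0.31. *C3'H* (AT2G40890), the hydroxylase that follows it, had 0.01 and 0.02 on its 2 probes, and *CCoAOMT1* (AT4G34050), a methyltransferase, had 0.09. For *C3'H* the 95% interval of the brighter probe was −0.22 to 0.23, and for *CCoAOMT1* it was −0.11 to 0.29.

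In the sinapate branch, the glucosyltransferase gene *UGT84A2* was higher in OsbHLH068OE, and the result for *SNG1* depended on the probe. *UGT84A2* (AT3G21560) encodes the enzyme that makes sinapoylglucose. It had 10.92, 11.03 and 10.64 in OsbHLH068OE, against 10.53, 10.05 and 9.92 in Col-0. The groups did not overlap, and the log2 difference was 0.70 (SE 0.192, limma adjusted P = 0.149). *REF1* (AT3G24503), the aldehyde dehydrogenase that forms sinapate and ferulate, had 12.15, 12.40 and 12.17 in OsbHLH068OE, against 11.85, 12.22 and 12.05 in Col-0. The groups overlapped, and the 95% interval of its log2 difference of 0.20 was −0.12 to 0.51.

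*SNG1* (AT2G22990) encodes the acyltransferase that makes sinapoylmalate, the main sinapate ester of *Arabidopsis* leaves. Its brighter probe read 14.42, 14.54 and 14.55 in OsbHLH068OE, against 14.44, 14.55 and 14.49 in Col-0. The groups lay together, with a log2 difference of 0.01 and an interval of −0.18 to 0.21. The second *SNG1* probe, annotated to another transcript of the same locus and singled out here after its values were seen, read 14.26, 14.21 and 14.25 in OsbHLH068OE, against 13.35, 13.67 and 13.72 in Col-0. Its groups did not overlap, and its log2 difference of 0.66 (SE 0.117) carried the lowest adjusted P of the 55 probes (limma adjusted P = 0.0826). Both probes were well above background on every array. Whether they measure different transcripts was not tested.

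The early flavonoid and flavonol genes were all higher in OsbHLH068OE, 4 of 6 of them at an unadjusted P under 0.05, where 12.5% of all genes were. The median log2 difference of the 6 was 0.46, with a range of 0.17 to 0.96. *FLS1* (AT5G08640), the main flavonol synthase, had the highest difference. It had 11.66, 11.48 and 11.60 in OsbHLH068OE, against 11.36, 10.24 and 10.27 in Col-0. All transgenic arrays were above all Col-0 arrays, but the first Col-0 array lay close to the transgenic arrays and far above the other Col-0 arrays. The log2 difference was 0.96 (SE 0.31, limma adjusted P = 0.186). *F3'H* (AT5G07990), which hydroxylates the flavonoid B ring, had 8.99, 8.76 and 8.81 in OsbHLH068OE, against 8.62, 8.20 and 7.95 in Col-0. The groups did not overlap, and the log2 difference was 0.59 (SE 0.182, limma adjusted P = 0.174). A second probe gave 0.61, and the remaining one was not well above background on any array.

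*F3H* (AT3G51240), the flavanone 3-hydroxylase, had log2 differences of 0.56 and 0.55 on its 2 probes, without overlap of the groups on either. *UGT78D1* (AT1G30530), a flavonol rhamnosyltransferase, had 0.37, also without overlap. *CHS* (AT5G13930), the chalcone synthase that commits carbon to flavonoids, had 12.15, 12.30 and 11.97 in OsbHLH068OE, against 12.40, 11.72 and 11.78 in Col-0, and the highest array was the first Col-0 array. *CHI* (AT3G55120), the chalcone isomerase, had 9.04, 9.19 and 9.34 in OsbHLH068OE and 9.14, 8.74 and 8.68 in Col-0. The log2 differences were 0.17 with an interval of −0.33 to 0.67 for *CHS*, and 0.34 with an interval of −0.04 to 0.71 for *CHI*.

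The late genes had the highest median in the main setting, a log2 difference of 0.61. At an unadjusted P under 0.05, 3 of 6 were higher, where 12.5% of all genes were. With an offset of 50 in the background correction, or without that correction, the late median was no higher than that of the early flavonoid genes. With the processed signal the late median was 0.64 and the early one 0.48. *UGT79B1*, an anthocyanin xylosyltransferase, had 6.49, 7.24 and 6.79 in OsbHLH068OE, against 5.47, 6.42 and 5.57 in Col-0. The lowest transgenic array was only just above the highest Col-0 array, so there was no overlap. The signal was 2.03-fold higher in OsbHLH068OE, a log2 difference of 1.02 (SE 0.31, 95% interval 0.26 to 1.78, limma adjusted P = 0.171). The log2 difference was 1.02 on each slide. It was under 1, so that the gene was no DEP, without Col-0 replicate 1 (0.84), without Col-0 replicate 3 (0.89), without OsbHLH068OE replicate 2 (0.82), with an offset of 50 added in the background correction (0.62), and with no background correction (0.64). By the methods' test in place of limma it was no DEP either, since its P was then just above 0.05.

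*UGT75C1* (AT4G14090), an anthocyanin glucosyltransferase, had 7.62, 8.25 and 7.89 in OsbHLH068OE and 7.19, 7.52 and 7.23 in Col-0, without overlap, for a log2 difference of 0.60. *UGT78D2* (AT5G17050), which glucosylates flavonols and anthocyanidins alike, had a smaller and more even log2 difference of 0.23, again without overlap. *DFR* (AT5G42800), dihydroflavonol reductase, opens the late branch. It had 8.17, 8.68 and 7.57 in OsbHLH068OE, against 6.74, 7.97 and 7.37 in Col-0. OsbHLH068OE replicate 3 was below 1 Col-0 array, so the groups overlapped, and its log2 difference of 0.78 had an interval of −0.19 to 1.74 (limma adjusted P = 0.331). *LDOX* (AT4G22880), the dioxygenase that makes anthocyanidins, had 6.72, 7.14 and 6.31 in OsbHLH068OE and 5.74, 6.37 and 6.19 in Col-0, and its interval was −0.00 to 1.25 around 0.62. *BAN* (AT1G61720), the anthocyanidin reductase of proanthocyanidin synthesis in the seed coat, was not well above background on any array, and no fold is given for it although its unadjusted P was under 0.05 (limma adjusted P = 0.223).

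None of the 6 activator genes differed at an unadjusted P under 0.05, and in none did the groups separate. With the slide as a block, the unadjusted limma P was 0.0236 for *MYB11* and 0.0345 for *TT8*. *MYB75* (AT1G56650), the anthocyanin activator also called PAP1, had 7.77, 7.96 and 7.50 in OsbHLH068OE, against 7.09, 7.97 and 6.70 in Col-0. The second Col-0 array was as high as the highest transgenic array, and the log2 difference was 0.49, with a 95% interval of −0.33 to 1.3. *MYB111* (AT5G49330), an activator of flavonol genes, had 7.65, 7.62 and 7.60 in OsbHLH068OE, against 7.83, 7.08 and 6.95 in Col-0. The first Col-0 array was the highest of all 6, and the transgenic arrays lay between it and the other Col-0 arrays. *MYB12* (AT2G47460), the related flavonol activator, had a log2 difference of −0.07, with an interval of −0.50 to 0.36.

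*MYB11* (AT3G62610), another flavonol activator, had 4.26, 5.02 and 4.99 in OsbHLH068OE, against 4.20, 4.29 and 4.36 in Col-0, where no array was well above background. Replicate 1 of OsbHLH068OE was below 2 of the Col-0 arrays, so the groups overlapped, and no fold is given (limma adjusted P = 0.292). *TT8* (AT4G09820), the bHLH partner of the late activators, had a log2 difference of 0.27, with an interval of −0.06 to 0.60. *MYB90* (AT1G66390), the close relative of *MYB75*, was near background on every array.

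**Figure D2:**
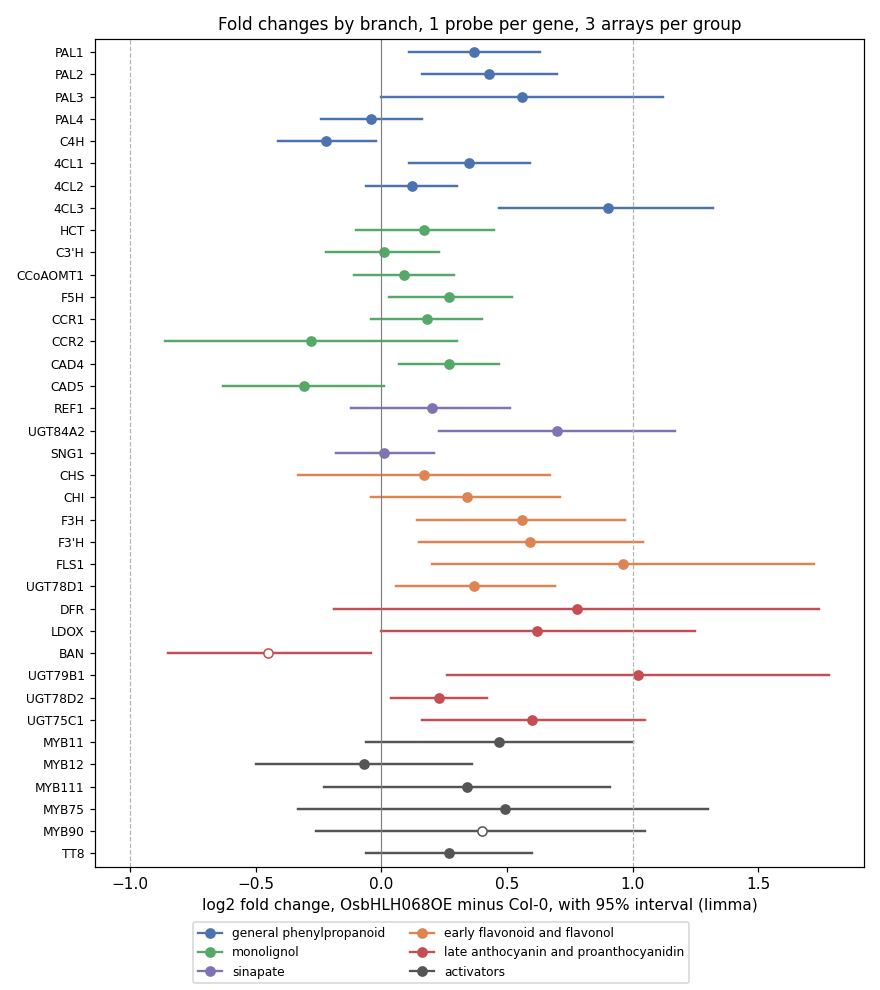
Log2 fold change of 37 of the genes, OsbHLH068OE minus Col-0, with its 95% interval from limma on 3 arrays per group, by branch; open points are genes not well above background on any array, and dashed lines mark 1 and −1. The filled points run from −0.31 for CAD5 to 1.02 for UGT79B1, and 31 of all points lie to the right of 0.

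Within the slides, the branches stood in a different order. Over the 38 genes the median log2 difference was 0.14 on slide 1, with 26 genes higher in OsbHLH068OE, and 0.38 on slide 2, with 33 higher, where the medians over all genes were 0.00 and 0.03. For the early flavonoid and flavonol genes it was 0.17 on slide 1 and 0.63 on slide 2. For the late genes it was 0.70 on slide 1 and 0.45 on slide 2. With 1 array per group on slide 1, the slide cannot be told apart from the replicate there.

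The Col-0 arrays differed between the slides in the same genes. Col-0 replicate 1, on slide 1, was the highest Col-0 array in 5 of the 6 early flavonoid and flavonol genes. Of all 25433 genes, it was the highest Col-0 array in 11909 and the lowest in 8562. In the 6 early genes it exceeded the mean of Col-0 replicates 2 and 3 by a median log2 value of 0.54, where the median over all genes was 0.05. In the transgenic arrays the corresponding median for the 6 early genes was 0.00. In the late genes this array was the lowest Col-0 array in 4 of 6 genes, with a median of −0.35. The same array was also the highest of the Col-0 arrays for *MYB111*, *4CL3* and *UGT84A2*. Without it, 9 of the 55 probes had a limma adjusted P under 0.05, all of them higher in OsbHLH068OE. They were those of *UGT84A2*, *FLS1*, *4CL3*, *MYB111* and the second *SNG1* probe, and 2 each of *F3H* and *F3'H*. Over all probes, 2684 passed without that array, against 230 with all arrays. Without it, *FLS1* had a log2 difference of 1.33 and *4CL3* one of 1.08, which made both DEPs.

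**Figure D3:**
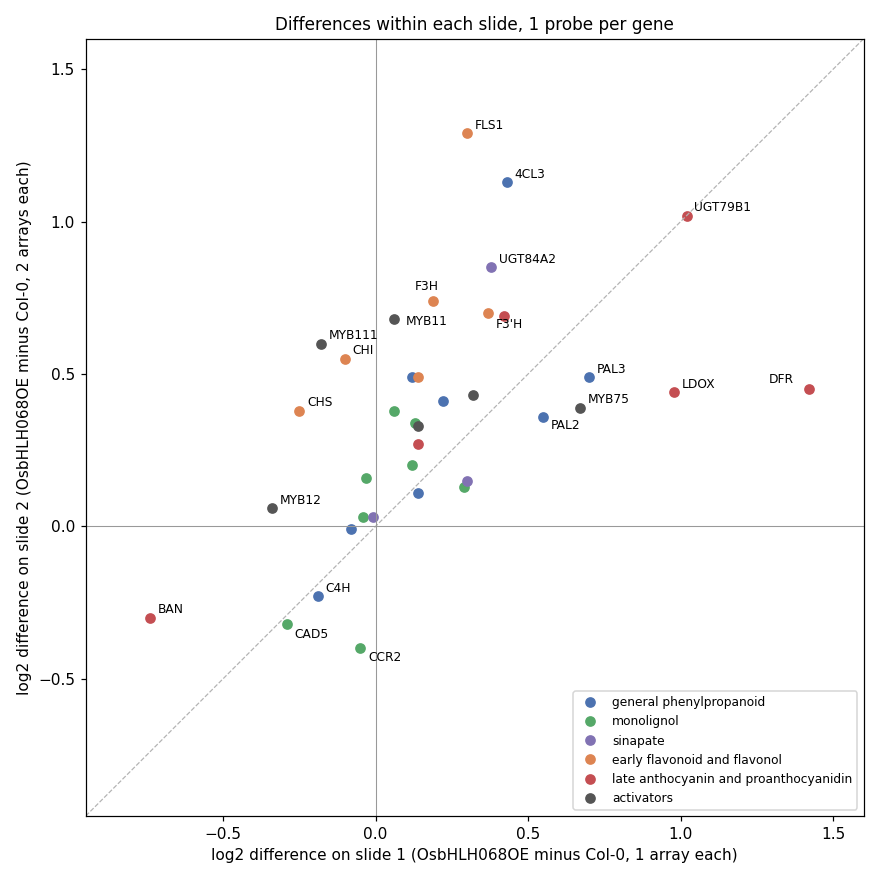
Log2 difference of 37 of the genes between OsbHLH068OE and Col-0 on slide 1 (horizontal axis, 1 array per group) and on slide 2 (vertical axis, 2 arrays per group), coloured by branch, with the dashed line where both are equal. FLS1 (0.30 and 1.29), 4CL3 (0.43 and 1.13) and MYB111 (−0.18 and 0.60) lie above the line, DFR (1.42 and 0.45) lies below it, and UGT79B1 (1.02 on both) lies on it.

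**Figure D4:**
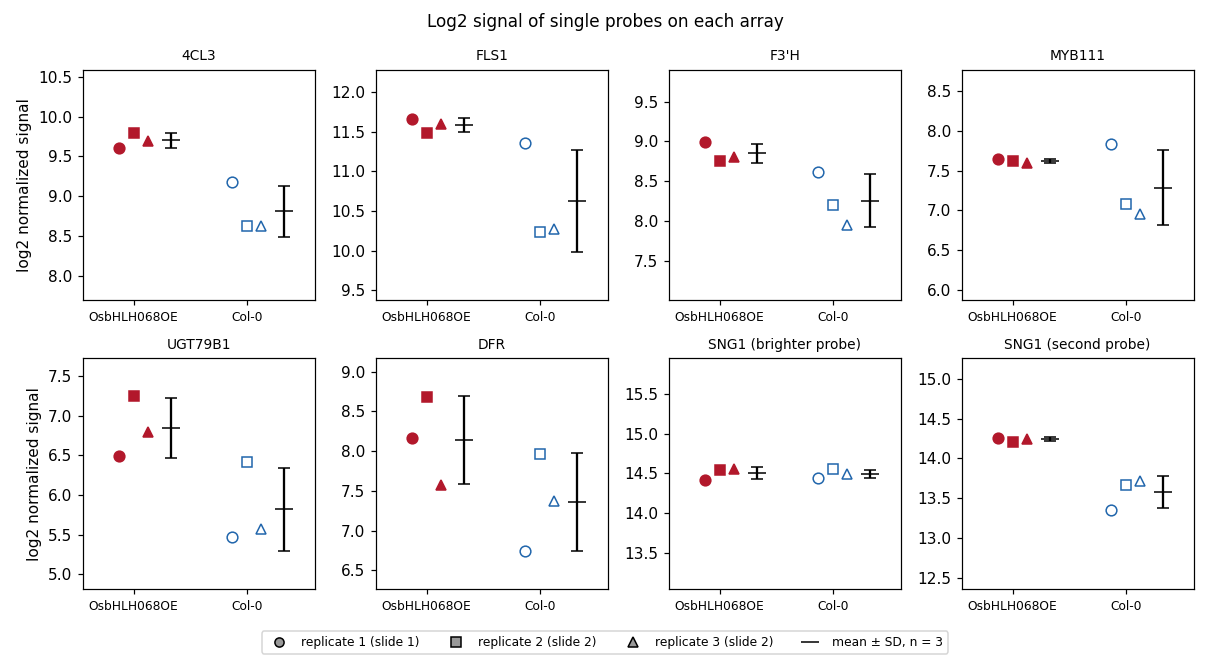
Log2 normalized signal of 8 probes on each array, OsbHLH068OE on the left and Col-0 on the right of each panel, with circles for replicate 1 on slide 1 and bars for the mean and SD of 3 arrays; each vertical axis spans the same log2 range. The circle for Col-0 lies near the transgenic arrays in FLS1 (11.36) and above them in MYB111 (7.83), and the 2 probes of SNG1 differ in whether the groups overlap.

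A further 48 genes of the pathway were listed beside the 38. Among 33 further enzymes, transporters and activators, 13 were higher in OsbHLH068OE and 20 were lower, with a median log2 difference of −0.09. At an unadjusted P under 0.05, 8 (24.2%) were higher and 6 were lower, 2 were DEPs, and 0 passed after adjustment, with 1 probe per gene. Of all genes, 12.5% were higher and 9.66% lower at that threshold, and 366 of 25433 were DEPs. The DEPs among the 33 were *UGT84A1* (AT4G15480), a hydroxycinnamate glucosyltransferase close to *UGT84A2*, and *5MAT* (AT3G29590), a malonyltransferase that decorates anthocyanins. *UGT84A1* had 9.59, 9.58 and 9.46 in OsbHLH068OE, against 9.06, 8.22 and 8.28 in Col-0, without overlap and with a log2 difference of 1.02 (SE 0.235, limma adjusted P = 0.116). *5MAT* had 7.12, 7.63 and 7.20 in OsbHLH068OE, against 5.68, 6.73 and 6.18 in Col-0, also without overlap, at 1.12 (SE 0.286, limma adjusted P = 0.134).

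Genes near these in the pathway differed in both directions. *CHIL* (AT5G05270), a chalcone isomerase-like protein that aids chalcone synthase, had a log2 difference of 0.77, and *UGT89C1* (AT1G06000), a flavonol rhamnosyltransferase, had 0.78, both at an unadjusted P under 0.05. *UGT84A3* (AT4G15490), another hydroxycinnamate glucosyltransferase, had −0.45, with 10.05, 9.64 and 9.99 in OsbHLH068OE against 10.05, 10.46 and 10.51 in Col-0. In *TT19* and *3AT1* of the late branch the probes of 1 gene differed in direction, as they did in *TT10* (AT5G48100), whose probes were near background. *TT19* (AT5G17220), a glutathione S-transferase needed for anthocyanin transport to the vacuole, had −0.21 on its brighter probe and 1.39 on the other, which read 8.58, 8.83 and 8.30 in OsbHLH068OE against 6.86, 7.71 and 6.98 in Col-0. *3AT1* (AT1G03940), an anthocyanin coumaroyltransferase, had −0.07 and 1.13. These second probes met the DEP criterion and were singled out after their values were seen, and their limma adjusted P was 0.089 for *TT19* and 0.0952 for *3AT1*.

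Downstream of the monolignols, the 3 laccase genes whose products polymerize them, *LAC4* (AT2G38080), *LAC11* (AT5G03260) and *LAC17* (AT5G60020), were lower in OsbHLH068OE at an unadjusted P under 0.05. Their log2 differences were −0.50, −0.65 and −0.52, with limma adjusted P values between 0.143 and 0.219. A second *LAC4* probe gave −0.40 with overlapping groups and an unadjusted limma P of 0.118. The groups of *LAC17* overlapped too. Among activators of secondary wall or lignin genes, the log2 difference was −0.58 for *MYB46* (AT5G12870) and −0.35 for *MYB83* (AT3G08500), but 0.24 for *MYB58* (AT1G16490) and 0.14 for *MYB63* (AT1G79180). *MYB46* and *MYB58* were at an unadjusted P under 0.05, and *MYB85* (AT4G22680) was near background. A second *MYB58* probe gave 0.09, with overlapping groups and an unadjusted limma P of 0.323. The secondary wall cellulose synthase genes *CESA4*, *CESA7* and *CESA8*, used as markers of xylem and fibers, had log2 differences of −0.62 to −0.43. Their summed signal on the log2 scale was 9.80 to 10.27 in OsbHLH068OE and 10.41 to 10.77 in Col-0, with no overlap and 0 of 3 DEPs. All 3 were lower at an unadjusted limma P under 0.05, where 9.66% of all genes were. The median log2 difference of the 3 was −1.06 on slide 1 and −0.35 on slide 2. In whole aerial tissue, fewer cells with a secondary wall and less RNA per such cell cannot be told apart. The study reports that the transgenic plants flowered later than the untransformed ones. All arrays were from seedlings of the same age, so the groups may have differed in developmental stage at harvest. The part of such a difference in the laccase and secondary wall values was not tested. Of the 9 monolignol genes, 7 were higher in OsbHLH068OE and 2 were lower. Only 3 of the 9 were higher at an unadjusted P under 0.05, where 12.5% of all genes were. The part of the secondary wall markers in these values was not tested.

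Of 15 repressor genes, 13 were higher in OsbHLH068OE and 2 were lower, with a median log2 difference of 0.21. The median was 0.50 on slide 1, with 13 higher, and 0.10 on slide 2, with 9 higher. At an unadjusted P under 0.05, 2 of the 15 (13.3%) were higher, near the 12.5% of all genes. Only *MYB4* (AT4G38620), a repressor of *C4H* and of sinapate ester synthesis, rose after adjustment, where 0.527% of all probes passed. It had 12.57, 12.46 and 12.30 in OsbHLH068OE, against 10.72, 10.24 and 10.48 in Col-0. The groups were far apart, at a log2 difference of 1.96 (SE 0.147, limma adjusted P = 0.0281), a 3.9-fold higher signal. Leaving out any single array other than Col-0 replicate 1 raised its adjusted P above 0.05, to at most 0.178. Without any 1 array the log2 difference stayed between 1.84 and 2.09. In the fits where *MYB4* did not pass, only 1 to 19 of all probes passed after adjustment, against 230 with all arrays. Beside *MYB4*, *C4H* had −0.22, and *SNG1* had 0.01 on its brighter probe and 0.66 on the other. The 5 KFB genes, which encode F-box proteins that mark PAL or chalcone synthase for degradation, had log2 differences of 0.22 to 0.62, with a median of 0.90 on slide 1 and 0.16 on slide 2. In all 5 of them Col-0 replicate 1 was the lowest Col-0 array, by a median log2 value of −0.81, which is the array on which the early flavonoid genes were high. It was the lowest Col-0 array in 8562 of all 25433 genes.

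The tissue label was checked against marker genes. The 5 leaf markers were well above background on every array, and their summed log2 signal was 20.16 to 20.19 in OsbHLH068OE and 20.11 to 20.20 in Col-0. None of the 4 root markers was well above background on all 3 OsbHLH068OE arrays, and 1 was on all 3 Col-0 arrays, with sums of 6.61 to 6.67 in OsbHLH068OE and 6.47 to 6.74 in Col-0. All 5 flower markers were well above background on every array, with sums of 12.14 to 12.66 in OsbHLH068OE and 12.48 to 13.03 in Col-0, the highest of them on Col-0 replicate 1. Single flower markers differed both ways at an unadjusted P under 0.05: *SEP3* had log2 differences of −0.78 and −0.91 on its 2 probes, without overlap, and *AG* had 0.55 on its brighter probe. Neither of the 2 seed coat markers was well above background on all arrays of a group, with sums of 5.20 to 5.63 in OsbHLH068OE and 5.37 to 5.70 in Col-0. The part of these markers in the pathway genes' differences was not tested. Nor was that of the later flowering which the study reports for the transgenic plants, in these markers or in the pathway genes.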

How the data were processed

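RNA of 6 one-colour Agilent arrays was compared, 3 per group, following the labels. The authors deposited log2 values that limma had background-corrected (normexp) and quantile-normalized, and repeating these steps from the spot signals gave the same values within 5e-09. The intensity values, median spot and background signals, were deposited by the authors as read with Feature Extraction 10.7.1.1, and its processed signal, also deposited, was background-subtracted by that software. Other deposited columns, per the file headers, are flags that mark spots as well above background, saturated or outliers. The 1417 control spots were left out and repeat spots averaged, which left 43603 probes, and 34358 of them were assigned to a gene through the RefSeq table for TAIR10.1.

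Limma 3.58.1 in R 4.3.3 (lmFit and eBayes) was fitted to all probes, with Benjamini-Hochberg adjustment. Tables and plots were made with Python 3.11.15, pandas 2.3.3 and matplotlib 3.10.9. On simulated data, with noise independent between probes, 200 of 43603 probes were changed by 1 on the log2 scale. Of the changed probes 97.5% had an unadjusted P under 0.05 and 58% an adjusted one. Of the unchanged probes 5.01% had an unadjusted P under 0.05. The 38 genes had a median log2 difference of 0.32, so these shares do not give the power for differences of their size. With 3 arrays per group, the median half-width of the 95% interval over the genes detected on all arrays was 0.32.

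The members and gene lists were chosen with earlier results of these data known. Full values are given for DEPs, for genes with an adjusted P under 0.05 and for the 2 genes of each branch with the largest absolute difference, with further genes described beside them. Alternatives were other background corrections and scalings, a filter on dim probes, other variance models, slide and replicate blocks, other probe and fold rules, and leaving out each array. Same-numbered arrays of the groups deviated together with correlations of 0.261, 0.0971 and 0.013, so the numbers were not taken as pairs. Over all pairs of an OsbHLH068OE and a Col-0 array, correlations were 0.013 to 0.261 on the same slide and −0.216 to −0.117 across slides. The main model had no term for the slide, which entered as a block in an alternative only. Promoter sequences were not used here. The counts and medians cover all 38 genes, 1 of which is not reported here by name or shown in the plots.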

Additional observations from a re-analysis of the deposited data

How the results depend on the processing

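The median log2 difference over the 38 genes and over each branch kept its sign under every alternative. On slide 1 alone it was 0.14 over all 38, 0.18 for the general, 0.06 for the monolignol, 0.17 for the early flavonoid and 0.10 for the activator genes. The mean of all probes of a gene gave 0.21 for the monolignol and 0.33 for the sinapate genes. An offset of 50 gave 0.14 for the activators, and no background correction 0.12. For the late genes both settings gave 0.44, beside 0.44 and 0.45 for the early flavonoid genes, so the late genes did not stand above these. Leaving out 1 array gave 0.25 to 0.35 over all 38, 0.30 to 0.38 for the general, 0.11 to 0.18 for the monolignol, 0.10 to 0.29 for the sinapate, 0.36 to 0.61 for the early flavonoid, 0.43 to 0.73 for the late and 0.23 to 0.42 for the activator genes.

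The 27 probes higher at an unadjusted P under 0.05 were 15 with 1 probe per gene and 17 to 30 without 1 array. The lowest count was without Col-0 replicate 3 or OsbHLH068OE replicate 2, and the highest without Col-0 replicate 1. The count over all probes moved the same way, from 4756 to 3206, 3110 and 7466 in that order. The 2 of the 55 that were lower were *C4H* and *BAN*, and their count was 1 with the processed signal (*CAD5*), 1 with the methods' t-test (*C4H*), 0 within slide 2 and 0 to 2 without 1 array. The single DEP became 0 with an offset of 50, without background correction and with the methods' t-test, 2 with the processed signal, 3 within slide 2 and 0 to 2 without 1 array. It became 8 with a 1.5-fold threshold, for which no share over all probes is given, so that count cannot be judged against them. Where 0 of the 55 probes passed after adjustment, 4 did with an offset of 50, 4 without background correction, 4 with an intensity trend and robust prior, 2 with the filter on dim probes and 0 to 9 without 1 array, the 9 without Col-0 replicate 1. The probe of *4CL3* and the second of *SNG1* were among them in each of these settings that called any. Over all probes, 230 passed after adjustment, against 1560, 1518, 1387 and 1347 in the same order of settings, 1018 with the slide block, 196 with the processed signal and 0 with the methods' t-test. DEPs over all probes numbered 509, against 926 with the processed signal or within slide 2, 322 with the offset, 320 without background correction and 1060 without Col-0 replicate 1.

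With the replicate number as a block, 0 of the 55 probes and 1 of all probes passed after adjustment, and *MYB4* had an adjusted P above 0.05 there, as it did with the methods' t-test and within slide 2. The cause of these shifts was not tested. The number of arrays limits the precision, and genes near background, *BAN*, *MYB90* and *MYB11*, have no fold given.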
